A study of Mus musculus with 20 samples.

Results

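The genes described here carry or restrain the signal of transforming growth factor beta (TGF-beta) in fibrosis. A list fixed by name selected 9 genes, out of 54325 in each deposited table: the ligands Tgfb1, Tgfb2 and Tgfb3, the ligand activator Thbs1, the receptors Tgfbr1 and Tgfbr2, the signal transducer Smad3, and the inhibitors Smad7 and Bambi. All 9 were found in both tables and all 9 were tested in both.

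The samples are livers of C57BL/6 mice in 4 groups, measured by mRNA sequencing. Mice on a methionine and choline deficient (MCD) diet, which the labels describe as nonalcoholic steatohepatitis, received either anti-ACBP/DBI or IgG. Mice on regular chow, described as healthy, received either anti-ACBP/DBI or IgG. ACBP, the product of Dbi, is an acyl-CoA carrier that cells also release, and the antibody was raised against it. The labels list 5 samples per group and give no sex, age, treatment time, antibody dose or batch. They do not say whether samples came from separate animals, so the p-values measure only the spread between these samples.

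TGF-beta is secreted bound to its own propeptide in a latent complex that is stored in the matrix, and integrins or thrombospondin-1 (the product of Thbs1) can release it. The free ligand joins the type 2 receptor Tgfbr2 to the type 1 receptor Tgfbr1, which phosphorylates Smad2 and Smad3. These enter the nucleus with Smad4 and activate matrix genes as well as Smad7, an inhibitor that acts back on the type 1 receptor. Bambi is a membrane pseudoreceptor with no kinase domain that dampens the signal. In injured liver the pathway is known for turning stellate cells into matrix-producing myofibroblasts, and macrophages, platelets and endothelial cells are among the sources of Tgfb1.

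Start site sequence was at hand for 5 of the 9 genes (RefSeq, build GRCm38.p6), and 3 windows are shown, each of 250 bases before the start and 5′ to 3′. They belong to a pair of ligands whose upstream regions differ in base composition, and to the receptor that rose on chow. Capitals mark the GC box (GGGCGG), the E-box (CACGTG) and the TATA box (TATAAA), each searched on both strands. An AP-1 site (TGACTCA), a cyclic AMP response element (TGACGTCA) and a palindromic Smad box (GTCTAGAC) were also searched and had no match in these 3 windows. The short Smad motif (CAGAC) and the CCAAT box (CCAAT), searched in the same way and left in lower case, did match and are given below the sequences.

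Tgfb1, plus strand, chr7:25686752-25687001: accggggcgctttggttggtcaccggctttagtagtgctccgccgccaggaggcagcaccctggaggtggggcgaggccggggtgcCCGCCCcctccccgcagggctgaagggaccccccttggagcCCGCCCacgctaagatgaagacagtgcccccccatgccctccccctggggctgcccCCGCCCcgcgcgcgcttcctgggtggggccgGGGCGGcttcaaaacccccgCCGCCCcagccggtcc
Tgfb2, minus strand, chr1:186705990-186706239: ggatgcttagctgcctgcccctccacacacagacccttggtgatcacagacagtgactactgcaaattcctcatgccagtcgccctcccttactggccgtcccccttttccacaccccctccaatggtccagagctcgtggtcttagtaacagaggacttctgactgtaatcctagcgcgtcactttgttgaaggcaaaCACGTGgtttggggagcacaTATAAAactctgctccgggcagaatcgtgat
Tgfbr2, minus strand, chr9:116175364-116175613: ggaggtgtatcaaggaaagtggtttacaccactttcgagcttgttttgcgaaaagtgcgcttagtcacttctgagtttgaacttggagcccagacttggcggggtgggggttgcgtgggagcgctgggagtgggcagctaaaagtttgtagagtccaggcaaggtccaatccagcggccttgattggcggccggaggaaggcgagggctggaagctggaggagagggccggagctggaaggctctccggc

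The Tgfb1 window was 75.2% G or C and held 5 GC boxes, which began 164, 123, 67, 36 and 16 bases before the start. It held no TATA box. The Tgfb2 window was 53.6% G or C and held an E-box 51 bases and a TATA box 31 bases before the start. The Tgfbr2 window was 58.4% G or C and held none of the capitalised motifs. The short Smad motif occurred 2 times in the Tgfb2 window, 221 and 204 bases before the start, and 1 time in the Tgfbr2 window, 160 bases before it, and was not found in that of Tgfb1. The CCAAT box occurred 1 time in the Tgfb2 window and 2 times in that of Tgfbr2. The median over all 32851 windows of this length was 52.4% G or C. Of those windows, 32.74% held a GC box, 6.021% the E-box and 12.37% the TATA box. The short Smad motif was in 42.19% of them and the CCAAT box in 33.85%. The AP-1 site was found in 4.463% of them, the cyclic AMP response element in 1.546% and the palindromic Smad box in 0.1674%. Of the other windows, that of Smad3 was 69.2% G or C with 2 GC boxes, and Tgfbr1 had 2 windows, 74.8% G or C with 2 GC boxes and 52.8% with none. A match describes letters and is no evidence that a factor binds there.

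The authors' deposited tables give group means and no value per library. A group mean is given in normalized counts, that is reads divided by a size factor per library. The MCD means rest on 5 libraries per group and the chow means on 4, as read from the values that a single read leaves in the tables, and which chow libraries these are is not known here. Columns summed to between 34621779 and 39398190 normalized counts. Size factors ran between 0.838 and 1.11. Dbi averaged 23709 normalized counts with anti-ACBP and 13686 with IgG on MCD in the authors' deposited table (log2 fold change 0.79 ± 0.097 SE, DESeq2 adjusted p = 1.12e-14, recomputed). On chow Dbi averaged 24525.8 normalized counts with anti-ACBP and 24311.5 with IgG in the authors' deposited table. Its log2 fold change there was 0.01 ± 0.087 SE (DESeq2 adjusted p = 0.952). As a check of the labelled tissue, 7 hepatocyte markers summed to 3993430 normalized counts with anti-ACBP and 2984910 with IgG on MCD in the authors' deposited table, and none stood at 0.

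**Figure D1:**
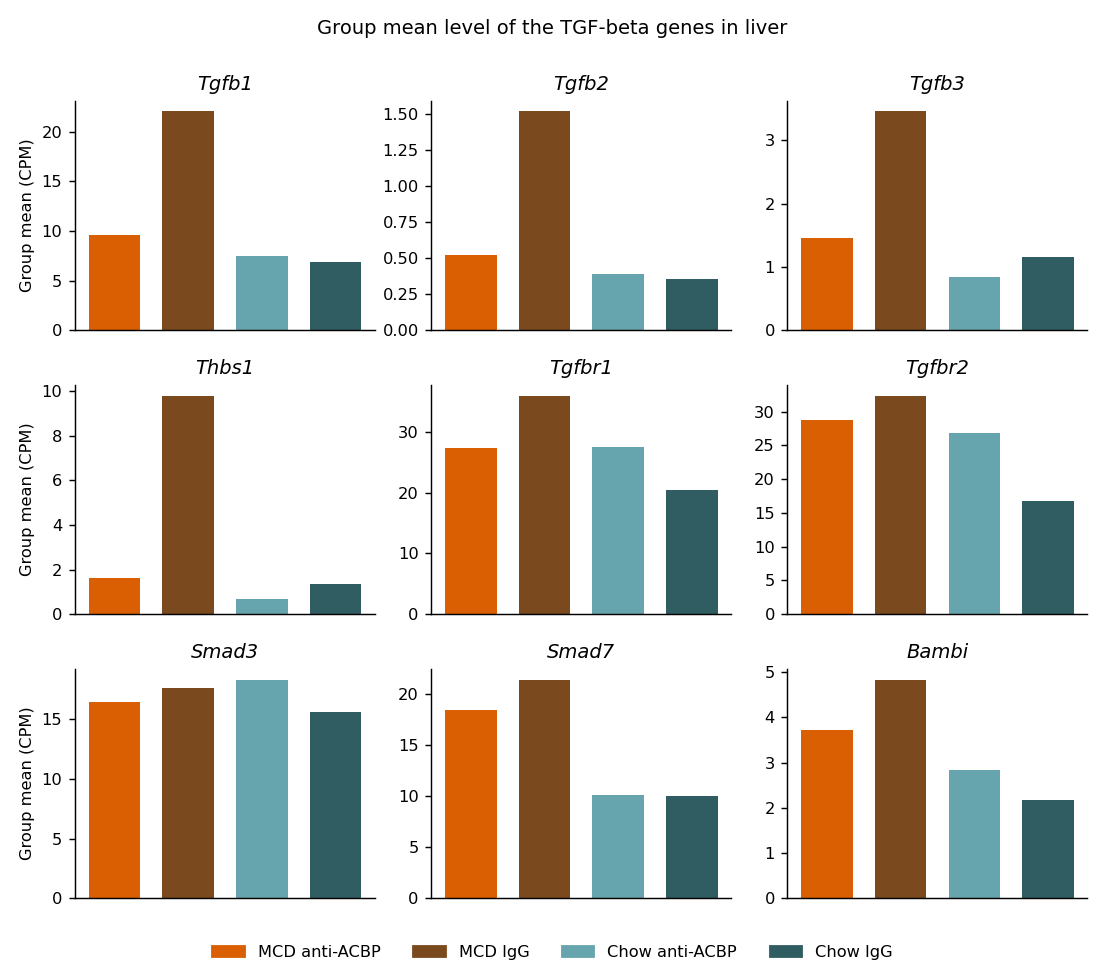
Group mean level of each TGF-beta gene in CPM (the group mean scaled to a column total of 1000000) on a linear axis that starts at 0, with 1 bar per group. No error is drawn because values per library were not used. Tgfb1 stood at 9.55 CPM in MCD anti-ACBP and 22.0 CPM in MCD IgG livers, and at 7.43 and 6.85 CPM in chow anti-ACBP and chow IgG livers.

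The first comparison asks what the antibody changed in these genes in livers on the MCD diet. All 3 ligands and Thbs1 fell, and the receptors, Smad3, Smad7 and Bambi did not pass the test. Calls are those with a DESeq2 adjusted p under 0.05 over the 20265 genes tested, and fold changes are log2 values of anti-ACBP over IgG. The 4 of 9 members that fell compare with 16.2% of all tested genes, and the 0 of 9 that rose with 14.7%. The members were chosen with earlier results of these data known, so these shares are descriptive and no independent test. At an unadjusted DESeq2 p under 0.05 the counts on MCD were likewise 4 lower and 0 higher. The median fold change was -0.21 over the 9 members and 0.018 over all tested genes. Relative to column totals, which lowers every fold change on MCD by 0.19, 79.6% of all called genes were lower, against 52.5% with the deposited scaling. In bulk liver, fewer cells of a type and less RNA per cell cannot be told apart.

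Tgfb1, the ligand with the highest level of the 3, averaged 376 normalized counts with anti-ACBP and 763 with IgG on MCD in the authors' deposited table. It fell by 1.02 ± 0.161 SE on the log2 scale in the authors' deposited table (DESeq2 adjusted p = 3.89e-09, recomputed). The level was 2.03-fold lower, with a 95% interval of the log2 change between -1.34 and -0.71. Tgfb3 averaged 57.2 normalized counts with anti-ACBP and 120 with IgG in the authors' deposited table. It fell by 1.07 ± 0.240 SE, a level 2.10-fold lower, in the authors' deposited table (DESeq2 adjusted p = 7.77e-05, recomputed).

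Tgfb2 was the lowest of the ligands, at 20.5 normalized counts with anti-ACBP and 52.6 with IgG in the authors' deposited table. Its fall of 1.34 ± 0.428 SE in the authors' deposited table (DESeq2 adjusted p = 0.00825) was the least precise of the 3, with a 95% interval between -2.18 and -0.50. About 102 normalized reads stood behind Tgfb2 over the 5 anti-ACBP libraries and about 263 over the 5 IgG libraries. The intervals of the 3 ligands overlap one another. Per kilobase of merged exon (GENCODE M21 lengths), Tgfb1 made up 78.5% of the summed level of the 3 ligands in MCD anti-ACBP livers and 77.3% in MCD IgG livers. Tgfb3 made up 17.8% with anti-ACBP and 18.1% with IgG, and Tgfb2 3.72% with anti-ACBP and 4.64% with IgG. The summed mean of the 3 ligands was 454 normalized counts with anti-ACBP and 935 with IgG in the authors' deposited table.

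Thbs1, which encodes the matrix glycoprotein thrombospondin-1 that can free latent TGF-beta, fell by more than the ligands did. Its mean was 63.8 normalized counts with anti-ACBP and 339 with IgG on MCD in the authors' deposited table. That is a fall of 2.41 ± 0.306 SE on the log2 scale in the authors' deposited table (DESeq2 adjusted p = 1.53e-13, recomputed). The level was 5.32-fold lower under anti-ACBP, and its 95% interval, between -3.01 and -1.81, does not meet the intervals of Tgfb1 and Tgfb3 but overlaps that of Tgfb2.

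The receptors did not pass the test on MCD. Tgfbr1 averaged 1079 normalized counts with anti-ACBP and 1247 with IgG, a log2 fold change of -0.21 ± 0.108 SE in the authors' deposited table (DESeq2 adjusted p = 0.139). It was called lower when fold changes were taken relative to column totals (-0.39, adjusted p = 0.00145) or centred on the median of genes at 5 CPM or more (-0.27, adjusted p = 0.0438), again with DESeq2 SEs. Tgfbr2 averaged 1131 normalized counts with anti-ACBP and 1121 with IgG in the authors' deposited table. Its log2 fold change of 0.01 ± 0.190 SE in the authors' deposited table (DESeq2 adjusted p = 0.971) has a 95% interval between -0.36 and 0.38.

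Smad3, which carries the signal to the nucleus, averaged 650 normalized counts with anti-ACBP and 611 with IgG on MCD in the authors' deposited table. The log2 fold change of Smad3 was 0.09 ± 0.104 SE in the authors' deposited table (DESeq2 adjusted p = 0.570). The inhibitor Smad7, itself a target of the pathway, averaged 726 normalized counts with anti-ACBP and 740 with IgG in the authors' deposited table. The fold change of Smad7 was -0.03 ± 0.269 SE (DESeq2 adjusted p = 0.957, the authors' deposited table), with a 95% interval between -0.56 and 0.50. Changes of Smad7 within that interval are not excluded. Bambi averaged 146 normalized counts with anti-ACBP and 167 with IgG, a log2 fold change of -0.19 ± 0.140 SE in the authors' deposited table (DESeq2 adjusted p = 0.320). It was called lower relative to column totals (-0.38, DESeq2-based adjusted p = 0.0237).

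**Figure D2:**
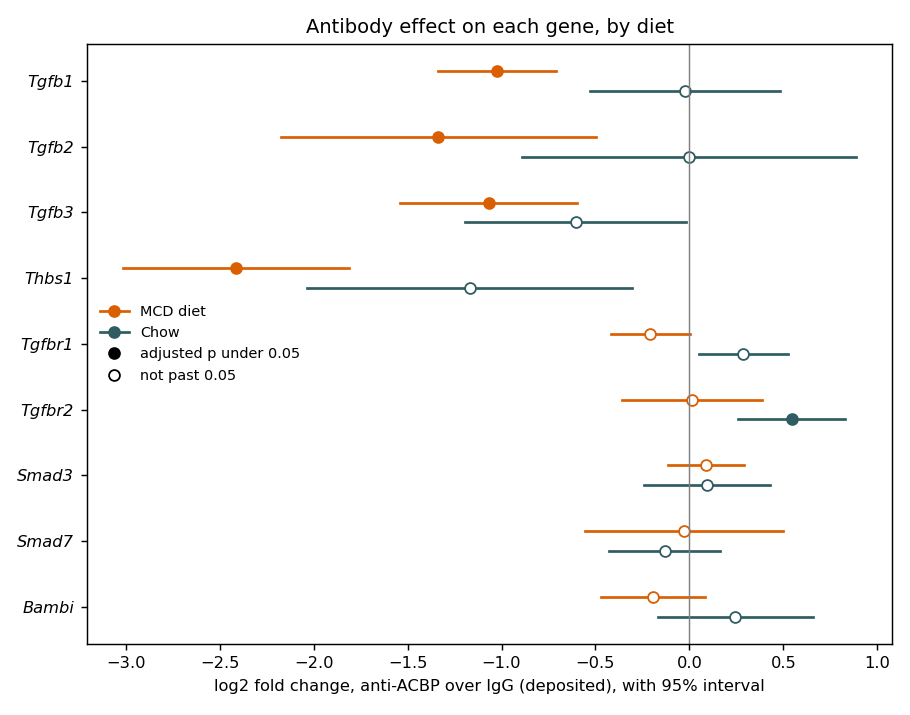
Deposited log2 fold change of anti-ACBP over IgG for each TGF-beta gene on MCD and on chow, with its 95% interval computed from the deposited standard error; filled points passed an adjusted p of 0.05. On MCD the 3 ligands and Thbs1 lie below 0, between -2.41 and -1.02, and on chow Tgfbr2 alone passed the test, at 0.55.

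The same antibody comparison on chow called 0 of the 9 members lower and 1 higher, against 6.46% lower and 5.58% higher of the 14618 genes tested there. At an unadjusted DESeq2 p under 0.05, 2 were lower and 2 higher. The receptor Tgfbr2 rose. It averaged 944 normalized counts with anti-ACBP and 647 with IgG on chow in the authors' deposited table. The log2 fold change of Tgfbr2 was 0.55 ± 0.145 SE (DESeq2 adjusted p = 0.00342, the authors' deposited table), which is 1.46-fold higher. Tgfbr1 averaged 966 normalized counts with anti-ACBP and 793 with IgG, a log2 fold change of 0.29 ± 0.121 SE in the authors' deposited table (DESeq2 adjusted p = 0.109). Once the log2 ratio of the chow column totals, -0.14, was taken off every fold change, Tgfbr1 was called higher (0.42, DESeq2-based adjusted p = 0.00481). With that scaling 17.0% of all called chow genes were lower, against 53.7% with the deposited one.

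No ligand passed the test on chow. Fewer reads stood behind each ligand there than on MCD, and whether that mattered was not tested. Tgfb1 averaged 261 normalized counts with anti-ACBP and 264 with IgG, a log2 fold change of -0.02 ± 0.259 SE in the authors' deposited table (DESeq2 adjusted p = 0.971). Tgfb2 averaged 13.8 normalized counts in both chow groups of the authors' deposited table, just above 12.9, the lowest mean that was tested there. The log2 fold change of Tgfb2 was -0.004 ± 0.454 SE (DESeq2 adjusted p = 0.998, the authors' deposited table). Tgfb3 averaged 29.4 normalized counts with anti-ACBP and 44.9 with IgG, a log2 fold change of -0.61 ± 0.301 SE in the authors' deposited table (DESeq2 adjusted p = 0.194). Thbs1 stood at 23.2 normalized counts with anti-ACBP and 52.2 with IgG in the authors' deposited table. Its log2 fold change of -1.17 ± 0.440 SE missed the threshold (DESeq2 adjusted p = 0.0603, the authors' deposited table), and its interval lies between -2.03 and -0.31.

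Smad3, Smad7 and Bambi did not pass on chow either. Smad3 averaged 644 normalized counts with anti-ACBP and 604 with IgG in the authors' deposited table (log2 fold change 0.09, DESeq2 adjusted p = 0.802). Smad7 averaged 353 normalized counts with anti-ACBP and 386 with IgG in the authors' deposited table (log2 fold change -0.13, DESeq2 adjusted p = 0.657). Bambi averaged 99.5 normalized counts with anti-ACBP and 84.3 with IgG in the authors' deposited table (log2 fold change 0.24, DESeq2 adjusted p = 0.528).

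Whether the antibody effect itself depended on the diet was tested as the difference of both deposited fold changes, MCD minus chow, over its combined SE. The tables share no library. Of the 9 members, 2 passed at an adjusted p of 0.05, Tgfb1 and Tgfbr1, against 23.2% of the 14607 genes tested in both tables, a share about the same as that of the members. For Tgfb1 the difference was -1.001 ± 0.305 SE (adjusted p = 0.00747 from the DESeq2 fold changes), with a 95% interval between -1.60 and -0.40. For Tgfbr1 it was -0.49 ± 0.162 SE (adjusted p = 0.0147 from the DESeq2 fold changes), from a fold change of -0.21 on MCD and 0.29 on chow. At a threshold of 0.01 Tgfbr1 was no longer called.

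For the other members no difference between diets was shown. Thbs1 differed by -1.24 ± 0.536 SE (adjusted p = 0.0766) and Tgfb2 by -1.33 ± 0.624 SE (adjusted p = 0.108). Both values are larger than that of Tgfb1 and both are less precise. The difference for Tgfbr2 was -0.53 ± 0.239 SE (adjusted p = 0.0913), so its rise on chow was not shown to be particular to chow. Tgfb3 differed by -0.46 ± 0.385 SE (adjusted p = 0.423) and Bambi by -0.44 ± 0.253 SE (adjusted p = 0.213). Smad7 differed by 0.10 ± 0.309 SE (adjusted p = 0.858). Smad3 stood at -0.003 ± 0.200 SE (adjusted p = 0.995), with an interval between -0.39 and 0.39. Relative to column totals, 6 members passed, which adds Tgfb2, Tgfbr2, Bambi and Thbs1.

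The third comparison sets MCD beside chow under the same antibody. Since the tables were scaled separately and hold no library values, these are levels without a test. Each group mean was taken as a share of its column total, and the log2 ratio was centred on the median of genes at 5 CPM or more, a median of 0.13 under anti-ACBP and 0.39 under IgG. Thbs1 was the single member at 1 or more under anti-ACBP, where 0.859% of 9195 genes lay at 1 or more and 0.631% at -1 or less. Under IgG, 4 of 9 members lay at 1 or more, where 4.28% of 8956 genes lay at 1 or more and 4.1% at -1 or less. These shares cover genes at 5 CPM or more in both groups, which 5 of the 9 members are: Tgfb1, Tgfbr1, Tgfbr2, Smad3 and Smad7. Of those 5, 0 lay at 1 or more under anti-ACBP and 1, Tgfb1, under IgG. The MCD groups are the same libraries as in the antibody comparison.

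Thbs1 had a centred log2 ratio of 1.16 under anti-ACBP and 2.46 under IgG. Tgfb1 stood at 0.23 under anti-ACBP and 1.29 under IgG, and Tgfb2 at 0.28 under anti-ACBP and 1.69 under IgG. Tgfb3 stood at 0.66 under anti-ACBP and 1.18 under IgG. In CPM, Thbs1 was at 1.62 in MCD and 0.661 in chow livers under anti-ACBP, and at 9.79 in MCD and 1.35 in chow livers under IgG. In all 4 of these genes the ratio was higher under IgG than under anti-ACBP. With a pseudocount of 1 CPM, Tgfb2 and Tgfb3 fell under 1 on the log2 scale with IgG, at 0.51 and 0.67, since both are low.

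The inhibitor Smad7 had similar ratios, 0.74 under anti-ACBP and 0.70 under IgG. Its level was 18.4 CPM in MCD and 10.06 CPM in chow livers under anti-ACBP, and 21.4 CPM in MCD and 10.0 CPM in chow livers under IgG. Bambi stood at 0.26 under anti-ACBP and 0.75 under IgG. Tgfbr1 had a ratio of -0.14 under anti-ACBP and 0.42 under IgG, and Tgfbr2 -0.03 under anti-ACBP and 0.55 under IgG. Smad3 was the member with a negative ratio under both antibodies, -0.28 under anti-ACBP and -0.22 under IgG. Its sign under IgG turned without centring (0.17) and with normalized counts as deposited (0.02), and under anti-ACBP with the deposited counts (0.01).

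**Figure D3:**
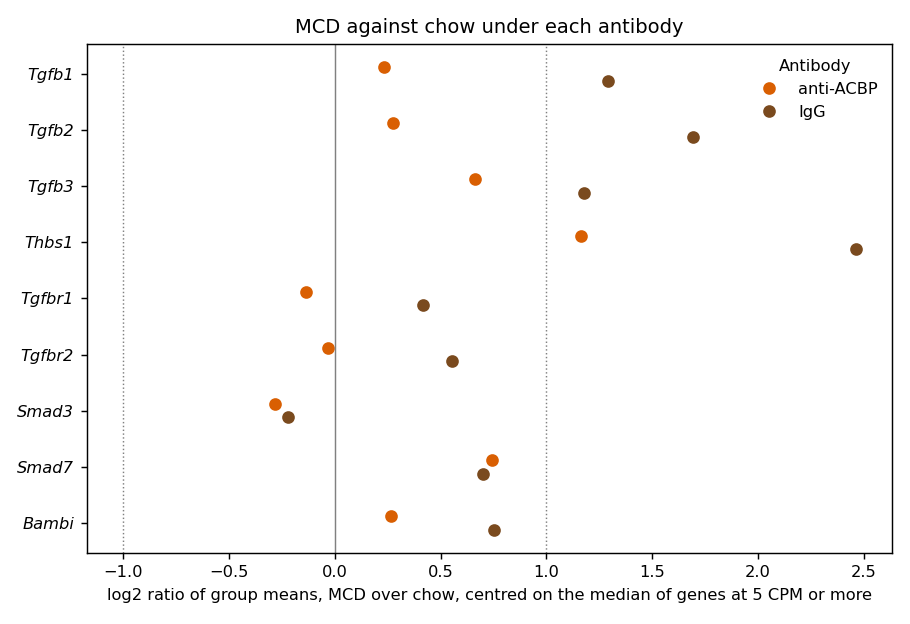
Log2 ratio of group means, MCD over chow, for each TGF-beta gene under anti-ACBP and under IgG, each as a share of column totals and centred on the median gene, with no test; dotted lines mark -1 and 1. Under IgG the 3 ligands and Thbs1 lie between 1.18 and 2.46, and under anti-ACBP between 0.23 and 1.16.

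Per kilobase of exon, both receptors, Smad3 and Smad7 stood above Tgfb2 and Tgfb3 in every group. They also stood above Tgfb1, except in MCD IgG livers, where Tgfb1 was above Tgfbr2 and Smad3. The order from the highest mean in MCD IgG livers was Tgfbr1, Smad7, Tgfb1, Tgfbr2, Smad3, Thbs1, Tgfb3, Bambi and Tgfb2. Tgfb1 had 1.89 CPM per kilobase in MCD anti-ACBP and 4.37 in MCD IgG livers, and 1.47 in chow anti-ACBP and 1.36 in chow IgG livers. Thbs1 had 0.267 CPM per kilobase in MCD anti-ACBP and 1.61 in MCD IgG livers. Its chow levels were 0.109 CPM per kilobase with anti-ACBP and 0.222 with IgG. Tgfbr1 had 4.19 CPM per kilobase in MCD anti-ACBP and 5.51 in MCD IgG livers. No spread over libraries can be given for these levels, so neighbours in the order are not separated. Small antisense genes overlap Tgfb2, Tgfb3 and Thbs1 on the opposite strand, and none had a mean above 0.71 normalized counts in any group of the authors' deposited tables.

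The other genes of the pathway were taken from 6 lists of 93 genes in all. These lists, like those of cell markers below, were chosen with earlier results of these data known. Their shares beside all tested genes are therefore descriptive and no independent test. On MCD 40 of the 89 tested fell (44.9%, beside 16.2% of all tested genes) and 13 rose (14.6%, beside 14.7%), with a median log2 fold change of -0.33. Relative to column totals 45 fell and 4 rose. Of the genes for latency and activation, 12 of 17 fell and 0 rose, also at an unadjusted DESeq2 p under 0.05 (median -0.77). They include Ltbp2 (-1.42), Fbn1 (-1.32), Nrros (-1.13) and Ltbp1 (-0.93), all log2 fold changes of the authors' deposited table. Ltbp1 encodes a latent TGF-beta binding protein and Ltbp2 its relative, Fbn1 the microfibril protein fibrillin-1 that anchors them, and Nrros a carrier of latent TGF-beta on macrophages and microglia.

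Among target genes of TGF-beta 16 of 21 tested fell and 3 rose (median -0.99). Timp1, an inhibitor of matrix metalloproteases, averaged 0.225 CPM with anti-ACBP and 3.61 CPM with IgG on MCD. Its log2 fold change was -3.82 ± 0.351 SE in the authors' deposited table (DESeq2 adjusted p = 2.36e-25, recomputed). Lox, which crosslinks collagen, fell by 2.69 on the log2 scale and Col1a1, a chain of type I collagen, by 1.99 in the authors' deposited table. Nox4, an NADPH oxidase that TGF-beta induces in myofibroblasts and that hepatocytes also express, rose by 1.41 ± 0.138 SE in the authors' deposited table (DESeq2 adjusted p = 2.46e-22, recomputed). Dact1 (0.62) and Fn1, fibronectin (0.19), rose in the authors' deposited table and were not called relative to column totals or centred on the median. Klf10 is listed with a p of 1 beside a log2 fold change of 0.88 ± 0.489 SE in the authors' deposited table, which was read as a p not given, so it is not among the 21.

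The other receptors and coreceptors did not move one way, with 1 of 10 lower and 2 higher. Acvrl1, the endothelial type 1 receptor ALK1, fell by 1.04 on the log2 scale, and the activin receptors Acvr2b and Acvr2a rose by 1.05 and 0.30 in the authors' deposited table, the call for Acvr2a being lost relative to column totals. Among Smads and cofactors 2 of 11 fell and 1 rose. Neither this list nor the receptors stood apart from the 16.2% lower and 14.7% higher of all tested genes. Tab1, which activates the kinase Tak1, fell by 0.83 and Smad2, the partner of Smad3, by 0.29 on the log2 scale in the authors' deposited table. Map3k7, which encodes Tak1, rose by 0.24 there in the authors' deposited table and was not called relative to column totals.

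Of 13 other inhibitors 4 fell and 2 rose, beside 16.2% lower and 14.7% higher of all tested genes. Tgif1 (-1.16), a corepressor of Smads, Pmepa1 (-0.61), which sequesters receptor Smads, Skil (-0.61), the corepressor SnoN, and Fkbp1a (-0.56), which holds the type 1 receptor inactive, fell in the authors' deposited table. Ppm1a (0.34), a Smad phosphatase, and Strap (0.19), which stabilises Smad7 on the receptor, rose in the authors' deposited table and lost the call relative to column totals. On the list for the activin and BMP branch 5 of 17 tested genes fell and 5 rose. A place on this list does not show that a gene acts through activin or BMP receptors. That holds for Gdf15, the largest change called on it. Gdf15 (-1.85) and Id1 (-1.33), a BMP target, fell, and Bmp7 (1.40) and Inhba (1.20), a chain of activin A, rose in the authors' deposited table. Inhbe, a liver activin chain, fell by 0.87 in the authors' deposited table.

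On chow 6 of 83 tested pathway genes fell (7.23%) and 3 rose (3.61%), with a median of 0.09. These shares are close to the 6.46% lower and 5.58% higher of all genes tested there. Relative to column totals 6 fell and 19 rose. The called genes that fell include Acta2 (-1.59), the smooth muscle actin of myofibroblasts, Col1a1 (-1.15) and Col3a1 (-0.87), a collagen chain, among 18 target genes tested, with log2 fold changes of the authors' deposited table. Fmod (-1.08), fibromodulin, was the single called gene for latency and activation in the authors' deposited table. Of the inhibitors Nedd4l (-0.76) and Tgif1 (-0.61) fell and Tgif2 (0.97) and Ppm1a (0.47) rose in the authors' deposited table. Smad4, the shared Smad, rose by 0.33 ± 0.105 SE in the authors' deposited table (DESeq2 adjusted p = 0.0205). Of 9 other receptors 0 passed the DESeq2 test, with 4 at an unadjusted p under 0.05, and of 16 genes of the activin and BMP branch 0 passed, with 3 at an unadjusted p under 0.05.

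The difference between diets was called for 26 of 82 pathway genes, 23 with a lower and 3 with a higher value on MCD. The lower calls are 28.0% of the tested pathway genes, beside 10.6% of all genes tested in both tables, and the higher calls 3.66%, beside 12.6%. The 3 were Fn1, Nox4 and Bmp7. For Fn1 the difference was small, 0.36 ± 0.125 SE (adjusted p = 0.0234 from the DESeq2 fold changes). As shares of column totals its levels were close between antibodies. Fn1 stood at 1635 CPM in both MCD groups, and on chow at 1200 CPM with anti-ACBP and 1228 CPM with IgG. For Nox4 the difference was 1.17 ± 0.193 SE (adjusted p = 6.69e-08 from the DESeq2 fold changes). Of the genes for latency and activation 7 of 16 passed, all with a lower value on MCD, among them Fbn1 at -1.30 ± 0.338 SE (adjusted p = 0.00137).

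**Figure D4:**
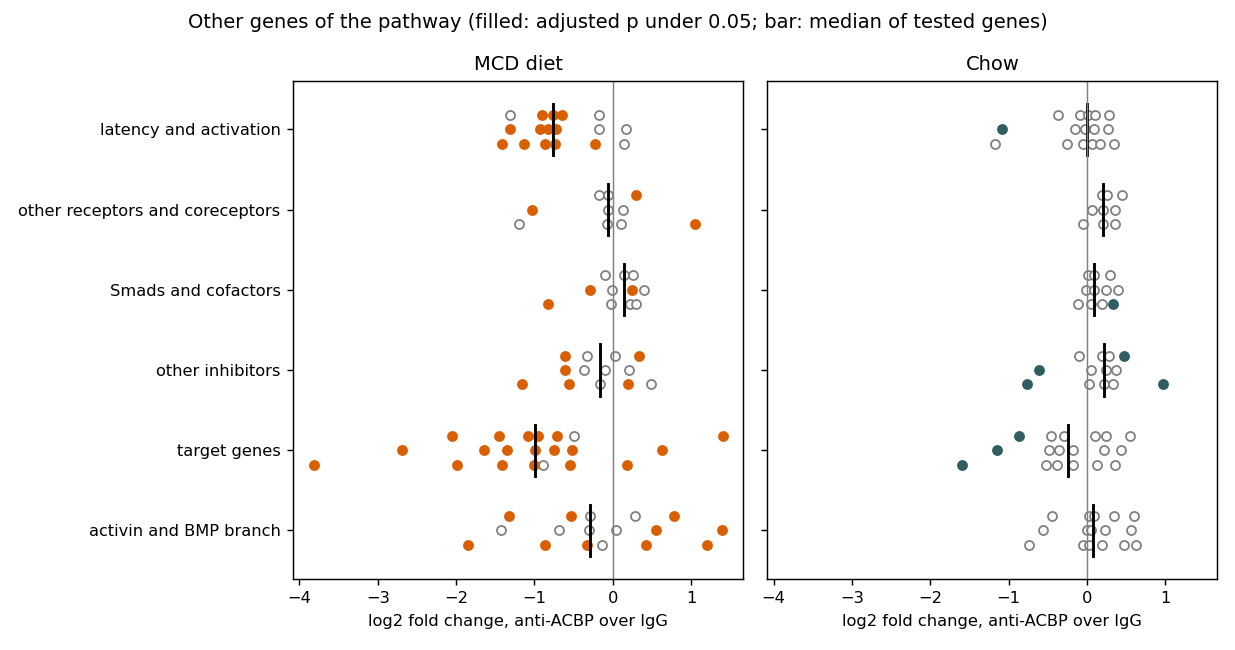
Deposited log2 fold change of anti-ACBP over IgG for each tested gene of the 6 other lists of the pathway, on MCD at left and on chow at right; filled points passed an adjusted p of 0.05 and the bar is the median. On MCD the medians of latency and activation genes and of target genes lie at -0.77 and -0.99, and on chow the points lie closer to 0.

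Of the markers of cells that can hold these transcripts, most on the macrophage list fell on MCD, as the ligands did. On the stellate cell list 5 of 9 fell. Over all genes tested on MCD, 16.2% fell and 14.7% rose. Of 12 macrophage markers 8 fell and 1 rose, Timd4 (1.14), a marker of resident Kupffer cells, and their summed mean was 6726 normalized counts with anti-ACBP and 23110 with IgG in the authors' deposited table. Gpnmb (-4.58) and Trem2 (-3.07), markers of lipid-associated macrophages, fell in the authors' deposited table. Of 9 stellate cell markers 5 fell and 0 rose, among them Ngfr (-1.08) and the receptor Pdgfrb (-1.02) in the authors' deposited table. The summed mean of that list was 11610 normalized counts with anti-ACBP and 13514 with IgG in the authors' deposited table. No marker of either list stood at 0 in any group. The part of cell number in the lower ligand levels was not tested.

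Of 10 endothelial markers 1 fell, Lyve1 (-1.22), and 1 rose, Kdr (0.43), with summed means of 11106 normalized counts with anti-ACBP and 11136 with IgG in the authors' deposited table, the call for Kdr being lost under both other scalings. Platelet and megakaryocyte markers summed to 236 normalized counts with anti-ACBP and 245 with IgG in the authors' deposited table. Most of both sums was Itga2b, at 182 with anti-ACBP and 132 with IgG, while Pf4 stood at 21.15 and 82.23. The similar sums therefore do not show that these markers were unchanged. Of 6 tested, 2 fell, Pf4 (-1.95) and Treml1 (-1.81), and 1 rose, Itga2b (0.46), in the authors' deposited table. Few reads stood behind Treml1, which averaged 2.96 normalized counts with anti-ACBP and 10.47 with IgG on MCD in that table. The higher calls of Timd4 and Itga2b were lost relative to column totals. Of 7 hepatocyte markers 5 rose, led by Ttr (0.78) and Apoa1 (0.55) in the authors' deposited table, and 2 were called relative to column totals. Among the rest, 0 of 9 T and NK cell and 0 of 4 B cell markers passed the DESeq2 test (2 and 0 at an unadjusted p under 0.05), 1 of 6 cholangiocyte markers fell, Epcam (-0.72), and 1 of 5 mesothelial markers fell, Wt1 (-1.27), in the authors' deposited table.

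On chow 0 of 11 macrophage markers passed the DESeq2 test (1 at an unadjusted p under 0.05), with summed means of 4693 normalized counts with anti-ACBP and 5305 with IgG in the authors' deposited table. Of 9 stellate cell markers 2 rose there, Hand2 (0.97) and Reln (0.48), while Fcgr2b (0.50) was the single endothelial marker called, higher, and Sox9 (-0.98) the single cholangiocyte marker called, lower, in the authors' deposited table. The calls for Reln and Fcgr2b were lost when fold changes were centred on the median. Over all genes tested on chow, 6.46% fell and 5.58% rose.

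The genes closest to each member over the 4 group levels were found by the distance of log2 CPM, each gene centred on its own mean. Candidates were genes at 5 CPM or more in all 4 groups, a filter that Tgfb2, Tgfb3, Bambi and Thbs1 do not pass themselves. Since only 4 group means enter, likeness of this kind is loose. Closest to Tgfb1 were Marcks, Rhoc and Vat1, of 8856 candidates, with Marcks at a distance of 0.046. Tgfb2 was closest to Actg1, Msn and Flna, and Tgfb3 to Lgals1, Akr1b3 and Ly6e. Among these candidates Thbs1 had few neighbours, with Trib3 at 0.44 the 1 gene of 8857 within 0.5. Col3a1 (0.58) and Col4a1 (0.60) came next. Genes under 5 CPM on chow, as Thbs1 is, were left out of this search. For Tgfbr1 the closest were Nol11, Pla2g12a and Sypl, but 5329 genes lay within 0.5, and Smad3, closest to Ptges3, Uhmk1 and Ube2w, had 5793. Tgfbr2 was closest to Fgfrl1, Chchd4 and Zfp609, Smad7 to Slc39a7 and Enpp2, and Bambi to Chpf2, Ankrd27 and Ppan.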

How the data were processed

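Liver mRNA was measured in 4 groups, taken from the diet and treatment labels, and strand-specific libraries were made per the labels' protocols. Reads were processed with HISAT2 2.2.1, HTSeq 0.13.5, DESeq2 and build mm39, per the submitters' processing notes, with no version of DESeq2. The authors deposited 2 tables, 1 per diet. The deposited signal columns hold normalized counts, as group means. The deposited fold change is log2 of anti-ACBP over IgG with its SE, per the file headers. The deposited p-value columns are rounded to 6 decimals, so adjusted p-values under 0.001 were recomputed from fold change and SE, which changed 0 calls.

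The antibody tests are therefore the authors' own, and no count model was fitted here. Differences between diets used a normal p with Benjamini-Hochberg adjustment over all genes tested in both tables. A run on simulated data checked the calculation only. Whether a normal p suits SEs estimated from so few libraries per group was not tested. CPM is a mean scaled to its column total. Analysis used Python 3.11.15, pandas 2.3.3, numpy 2.4.6 and scipy 1.17.1.

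The members and gene lists were chosen with earlier results of these data known. Named genes are all members, the 4 called genes with the largest change in each pathway list, up to 3 called against the direction of most of their list, the 2 largest called markers per cell type and the 3 genes closest to each member. A few genes that this rule names are not reported here. Of 172 list genes 171 were matched. Alternatives covered scaling, centring, filters on low values, the threshold and a pseudocount. Column totals of at least 34621779 normalized counts leave few reads behind the lowest member, Tgfb2 (a mean of 13.8 on chow), whose SE is the widest.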

Additional observations from a re-analysis of the deposited data

Results flagged for a closer look

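The antibody effect differed between diets for 2 members, by the test of the difference itself, a share of the 9 members about the same as the 23.2% of all genes tested. The log2 fold change of Tgfb1 was -1.02 on MCD and -0.02 on chow, a difference of -1.001. That of Tgfbr1 was -0.21 on MCD and 0.29 on chow, a difference of -0.49.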

How the results depend on the processing

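Under 6 alternatives the fall of Tgfb1, Tgfb3 and Thbs1 on MCD and the rise of Tgfbr2 on chow kept their direction and call. Tgfb2 on MCD kept both in the 5 alternatives that tested it, since a mean of at least 50 normalized counts leaves it out. Members called on MCD numbered 4, and 3 to 6 under the alternatives. Relative to column totals the members called on chow numbered 2 in place of 1 (Tgfbr1 added), and those that differed between diets 6 in place of 2, and at a threshold of 0.01 they numbered 1. Members at 1 or more between diets under IgG numbered 2 in place of 4 with a pseudocount of 1 CPM. Under anti-ACBP they numbered 2 in place of 1 with normalized counts as deposited and 0 with the pseudocount. Among list counts that moved by over 1.5 times, pathway genes called on chow numbered 25 in place of 9 relative to column totals, other receptors on MCD 5 in place of 3, and pathway genes that differed between diets 50 in place of 26, or 12 at a threshold of 0.01. The activin and BMP branch on MCD had 5 calls in place of 10 at a threshold of 0.01. The cause was not tested. No paired analysis was possible because values per library were not used and the sample titles are numbered through the whole series, so no number in the labels recurs between groups. Leaving out each replicate was not run for the same want of library values, so the effect of a single library on a mean could not be measured. The SE of Tgfb2, the member with the lowest means, was 0.428 on MCD and 0.454 on chow. Smad7, with far higher means, had an SE of 0.269 on MCD. The part of depth in these SEs was not tested.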
